A study of Mus musculus with 3 samples.

Results

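The regions described here are stretches of open chromatin that were found in both kinds of mouse cortical projection neuron studied, but that ranked higher among the shared regions in callosal projection neurons (CPN) than in corticospinal motor neurons (CSMN). The peaks of 3 ATAC-seq libraries were merged wherever they overlapped by at least 1 bp, which gave 204313 regions, and 62435 of these had a peak in all 3 libraries. In each shared region the highest fold enrichment of each library was turned into a percentile among the shared regions of that library, from near 0 for the weakest to 1 for the strongest. A region was a member when its percentile in CPN 1 and its percentile in CPN 2 both exceeded its CSMN percentile by at least 0.25. There were 3583 members, 5.74% of the 62435 shared regions. The same rule in the other direction, with CSMN above both CPN libraries, was met by 2975 regions, 4.76% of the shared regions, and 55877 regions met neither rule.

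The study measured open chromatin in neurons sorted by FACS from mouse brain. CPN were represented by 2 libraries and CSMN by 1 library, each from 50000 cells and each called a biological replicate in the labels. The labels name no treatment or genotype for either cell type. For the mice, the sources used here give no age, sex or strain, and for the sort no markers and no word on pooling of animals. The lists held 134018 peaks in CPN 1, 158779 in CPN 2 and 98067 in CSMN. No total of reads per library was at hand, so depth is unknown. CSMN had no replicate, and for that reason the cell types were not tested against each other. Cell type and library cannot be told apart as the source of a difference between CSMN and CPN. Members were chosen by the folds of these same libraries, which are therefore given as a description. Comparisons with other regions rest on measures that the rule did not use, such as position.

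ATAC-seq uses a transposase that cuts and tags DNA where nucleosomes leave it exposed, so that a peak marks an accessible stretch such as a promoter or an enhancer. Promoters lie at gene starts and many are open in most cell types. Enhancers lie within or between genes, bind cell-type transcription factors and are more often open in some cell types only. CPN connect the cerebral hemispheres through the corpus callosum and include many upper-layer neurons, while CSMN are deep-layer neurons that send axons to the spinal cord. Cux2 is a transcription factor known from upper-layer neurons, and Fezf2 and Bcl11b are known for specifying the subcerebral neurons to which CSMN belong.

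Sequence was at hand only for the bases around gene starts, from RefSeq's promoter table for GRCm38.p6, the build also named mm10, and the 250 bases before the start were used. Shown first are 4 genes, those with the largest gap among named members at a gene start whose window overlapped the member. The last is the start of Mapk8, a kinase of the JNK family, whose region ranked alike in the 3 libraries and is shown for contrast. The windows are Fam47e at chr5:92554798-92555047 on the plus strand, Rara at chr11:98937446-98937695 on the plus strand and Atp6v1e2 at chr17:86947888-86948137 on the minus strand. The window of Tie1 is chr4:118489850-118490099 on the minus strand and that of Mapk8 is chr14:33447159-33447408 on the minus strand. Each is written 5′ to 3′ on the gene's strand, and capitals mark matches to the short motifs spelled out in the account of gene starts.
Fam47e: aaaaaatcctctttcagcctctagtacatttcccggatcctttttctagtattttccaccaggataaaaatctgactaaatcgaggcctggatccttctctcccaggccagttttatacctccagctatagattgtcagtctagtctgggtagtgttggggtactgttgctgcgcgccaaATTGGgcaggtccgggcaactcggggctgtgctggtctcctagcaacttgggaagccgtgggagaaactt
Rara: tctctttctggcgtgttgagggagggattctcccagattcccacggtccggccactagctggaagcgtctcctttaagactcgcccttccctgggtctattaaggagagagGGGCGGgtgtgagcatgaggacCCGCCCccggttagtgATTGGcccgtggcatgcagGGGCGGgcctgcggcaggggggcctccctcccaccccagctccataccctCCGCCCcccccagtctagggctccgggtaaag
Atp6v1e2: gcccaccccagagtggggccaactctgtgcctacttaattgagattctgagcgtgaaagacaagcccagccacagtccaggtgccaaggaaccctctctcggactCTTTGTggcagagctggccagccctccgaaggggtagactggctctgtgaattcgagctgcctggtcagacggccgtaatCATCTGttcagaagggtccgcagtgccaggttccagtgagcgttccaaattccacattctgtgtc
Tie1: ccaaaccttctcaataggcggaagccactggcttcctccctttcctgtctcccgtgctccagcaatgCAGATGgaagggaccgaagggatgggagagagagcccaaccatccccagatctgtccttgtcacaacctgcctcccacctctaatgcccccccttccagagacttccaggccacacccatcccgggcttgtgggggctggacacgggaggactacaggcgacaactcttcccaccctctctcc
Mapk8: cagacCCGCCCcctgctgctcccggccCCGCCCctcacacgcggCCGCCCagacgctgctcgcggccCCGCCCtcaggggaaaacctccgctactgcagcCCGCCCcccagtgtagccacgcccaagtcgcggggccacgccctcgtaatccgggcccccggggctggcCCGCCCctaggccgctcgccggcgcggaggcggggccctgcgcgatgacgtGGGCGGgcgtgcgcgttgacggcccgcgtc
The windows of the members held 49.2%, 65.2%, 56.8% and 60.4% G or C in the order shown, with 7, 13, 8 and 6 CpG pairs. The Mapk8 window held 79.2% G or C and 36 CpG pairs, and all 7 of its motif matches were to GGGCGG. Windows of regions that met neither rule had medians of 60.8% and 16 CpG pairs. Mapk8 is thus not typical of them.

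Members had middling to high folds in both CPN libraries and weak peaks in CSMN. The median folds were 7.4 (CPN 1), 7.60 (CPN 2) and 2.60 (CSMN), and the folds ranged from 4.27 to 35.7, from 4.38 to 46.2 and from 1.69 to 5.03. Folds are each library's own values, as the authors deposited them, and the medians over all shared regions were 6.28, 6.43 and 3.61. As percentiles the members' medians were 0.595 and 0.594 in the CPN libraries and 0.177 in CSMN. The members were mostly not among the strongest CPN regions, since 610 (17%) of them had a CPN 1 percentile above 0.75. In CSMN, 2330 members (65%) had a percentile of at most 0.25.

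The CPN libraries ranked these regions alike, which the rule favours, as it asks both CPN percentiles to exceed that of CSMN. The median difference between the CPN 1 and CPN 2 percentiles, without sign, was 0.0497 in members and 0.0511 over all shared regions. The smaller of a member's gaps to CSMN, called the lower gap here, had a median of 0.332 and reached 0.834. Over all shared regions, a difference of at least 0.25 in either direction was found in 1201 regions (1.92%) between CPN 1 and CPN 2. The same difference was found in 9582 regions (15.3%) between CPN 1 and CSMN and in 10387 (16.6%) between CPN 2 and CSMN. In the direction of the members, a further 3215 regions exceeded CSMN by the margin in 1 CPN library and not in the other. The lower gap was at least 0.35 in 1534 members, at least 0.5 in 304, at least 0.6 in 74 and at least 0.7 in 16.

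**Figure D1:**
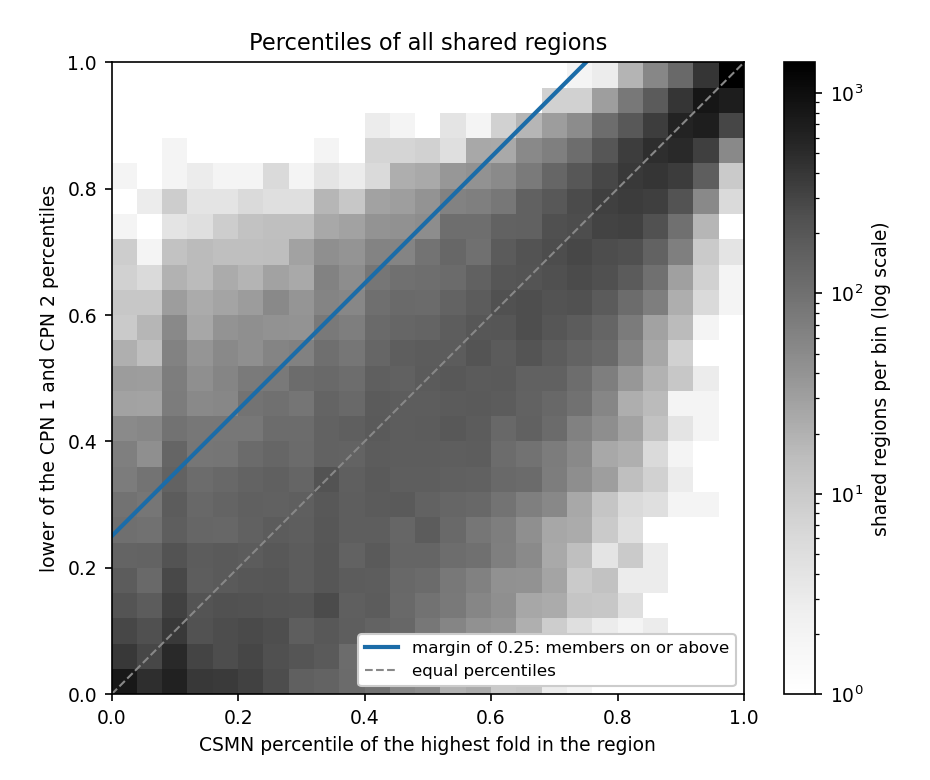
All 62435 shared regions by their CSMN percentile (horizontal axis) and the lower of their CPN 1 and CPN 2 percentiles (vertical axis), with the number of regions per bin in grey on a log scale. The 3583 members lie on or above the blue line at a margin of 0.25, and the bins run on across the line without a break.

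The CSMN peaks of most members were among the weaker ones of the authors' list. All 3583 members had a −log10 q of at least 5 in both CPN libraries, and 1170 (32.7%) had it in CSMN, where 76.9% of the regions that met neither rule had it. The lowest −log10 q in the CSMN list was 1.3. CSMN folds tied more often, with 28522 distinct values over the shared regions against 39875 in CPN 1. When only peaks with a −log10 q of at least 5 were merged and ranked again, 2612 regions were members, 5.75% of 45449 shared regions, and 1169 of the 3583 members remained members.

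The regions nearest to the margin lie in a continuous range. Just inside it were a region in Cemip2 with folds of 6.13, 7.53 and 2.69 (CPN 1, CPN 2, CSMN), a region in Sipa1l1 with 4.59, 5.2 and 2.26, and one at the start of Timm8a1 with 13.0, 14.6 and 4.16. Just outside it were a region in Lypd6 with folds of 7.58, 7.72 and 3.04, one in Zfp423 with 7.38, 9.02 and 3.02, and one in Ccdc141 with 4.25, 4.53 and 2.

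The 10 members with the largest lower gaps were all away from gene starts, and 6 of them lay inside a gene. The largest gap, 0.834, was at chr14:20970959-20971334 inside Vcl, which encodes vinculin, a protein that links actin to sites of cell adhesion. Its folds were 14.1 (CPN 1), 14 (CPN 2) and 2.17 (CSMN), and its percentiles were 0.871, 0.862 and 0.0272. This region was high in both CPN libraries and near the bottom in CSMN. At chr12:85350558-85351279, inside Tmed10, a cargo receptor of the early secretory pathway, the folds were 11.5, 12.4 and 2.17 in the same order. At chr18:70096877-70097429, inside Rab27b, a small GTPase of vesicle exocytosis, they were 13.9, 15.9 and 2.43. In all 3 of these regions the folds of the CPN libraries lay far closer to each other than to that of CSMN. Choosing regions by the largest lower gap favours this, so it is a description.

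The other 7 were chosen in the same way and had the same pattern. Inside Dclk1, a doublecortin-like kinase of microtubules in neurons, the folds at chr3:55447937-55448385 were 14.3, 15.8 and 2.52. Inside Rad51b, a DNA repair gene, they were 14.4, 13.1 and 2.43 at chr12:79488674-79489253, and inside Atp6ap1l they were 10.6, 12 and 2.26 at chr13:90896029-90896438. Between genes, a region at chr13:114477827-114478765 lay 19307 bp from Fst, which encodes the activin inhibitor follistatin, with folds of 13.3, 11.4 and 2.26. Another, at chr2:142554825-142555138, lay 63359 bp from Kif16b, a kinesin of endosomes, with 13.6, 15.6 and 2.43. The last 2, each over 100 kb from any protein-coding gene, lay at chr4:64224969-64225300, with folds of 11.9, 14 and 2.17, and at chr12:54364326-54365133, with 11.6, 14.5 and 2.34. The −log10 q of the CSMN peak was between 1.99 and 3.55 in all 10, so none of them was shared at a −log10 q of at least 5.

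Several of these CSMN peaks were narrow, and the 10 largest lower gaps were therefore also taken among members whose strongest peak was at least 200 bp wide in every library. The regions in Tmed10, Dclk1 and Rad51b, the one near Kif16b and the one at chr12:54364326-54365133 stayed in this set. It added a region in Pde11a, a phosphodiesterase, at chr2:76283616-76284074 with folds of 11.5, 11.7 and 2.34. It also added one in Itgb5, an integrin subunit, at chr16:33859930-33860562 with 14.3, 16.1 and 2.60, and one in Max, the partner of Myc proteins, at chr12:76954849-76955602 with 10.7, 9.66 and 2.17. The remaining 2 lay 47297 bp from Septin7, a cytoskeletal GTPase, with folds of 9.88, 14.8 and 2.17, and at chr2:114797070-114797685, with no gene within 100 kb and folds of 12.3, 10.8 and 2.34. The CPN libraries differed most in the region near Septin7, where both still lay above CSMN.

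**Figure D2:**
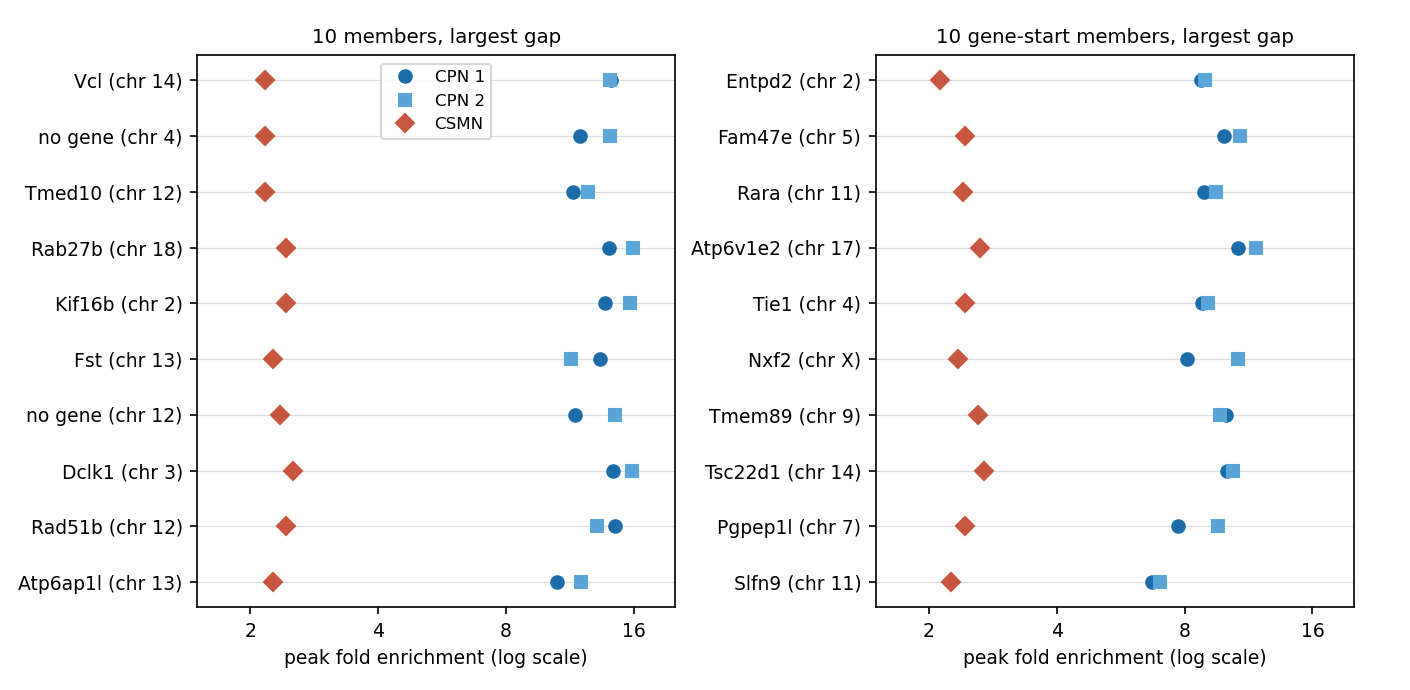
Fold enrichment of the strongest peak of each library (log scale) in the 10 members with the largest lower gap (left) and the 10 at a gene start with the largest lower gap (right), each row 1 region named by its nearest gene (left) or the gene that starts there (right), with its chromosome. Circles and squares are the CPN libraries and diamonds the CSMN library, and in every row both CPN values lie well to the right of the CSMN value, which ranges from 2.13 to 2.69. The rows were chosen by the gap between these libraries.

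Members were rarely at gene starts, a property the rule did not use. A region counted as at a gene start when it lay within 1 kb of one, and 145 members (4.05%, Wilson 95% interval 3.45 to 4.74%) did. Among regions that met neither rule 25.6% did, and among those higher in CSMN 7.80% did (6.89 to 8.82%). Inside genes and away from their starts lay 1720 members (48.0%, 46.4 to 49.6%), against 36.7% of regions of either other class. Between genes lay 1718 members (47.9%, 46.3 to 49.6%), 55.5% of the regions higher in CSMN and 37.7% of those that met neither rule. Both classes that ranked apart between the libraries were thus poor in gene starts. Exons and introns could not be told apart with the annotation used. These intervals cover counting error only, and regions of 1 library are not independent replicates.

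Regions at gene starts tend to be strong in every library, and a region with a CSMN percentile above 0.75 could not be a member. The share of members was therefore also taken within ranges of the CSMN percentile. At CSMN percentiles up to 0.25, members were 7.13% (5.80 to 8.74%) of 1178 regions at gene starts, 14.5% of 7972 inside genes and 16.9% of 6458 between genes. From 0.25 to 0.5, members were 3.03%, 7.19% and 7.66%, and from 0.5 to 0.75 they were 0.574%, 1.06% and 1.16%. Gene starts held the lowest share in each of the 3 ranges, and in the last of them the intervals at gene starts (0.354 to 0.931%) and inside genes (0.829 to 1.36%) overlapped. The shares between genes were at least as high as those inside genes in each range. Up to 0.25, 1155 of 2330 members (49.6%) lay inside genes, against 7972 of 15608 shared regions, so members showed no excess inside genes there. From 0.25 to 0.5, 503 of 1094 members (46.0%) did. The shared regions of that range were 7000 inside genes, 7126 between genes and 1483 at gene starts. The excess of members inside genes over the reverse class was small within CSMN ranges. From 0.25 to 0.5, regions inside genes were 46.0% (43.0 to 48.9%) of members against 43.2% (40.1 to 46.4%), and from 0.5 to 0.75 they were 39.0% against 36.4%, with overlapping intervals in both.

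**Figure D3:**
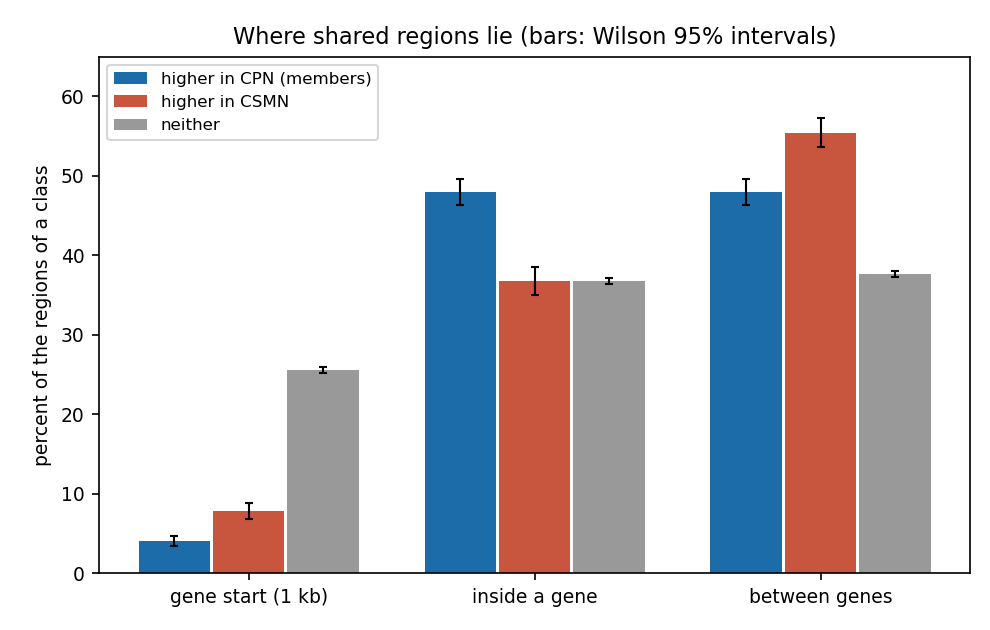
Percent of the members, of the regions higher in CSMN and of the regions that met neither rule (vertical axis) that lie within 1 kb of a gene start, inside a gene or between genes, with Wilson 95% intervals as black bars. Members lie at gene starts in 4.05% of cases, against 25.6% of regions that met neither rule, and more often inside genes (48.0%) than either other class (36.7%). The classes differ in CSMN percentile, and these shares are not split by it.

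The 10 members at a gene start with the largest lower gaps are given by name. The largest lower gap there, 0.664, was at chr2:25394597-25395276, which lay 598 bp from a start of Entpd2, an enzyme that cleaves extracellular nucleotides. Its folds were 8.75 (CPN 1), 8.92 (CPN 2) and 2.13 (CSMN). The member at the start of Fam47e, whose window is printed above, had folds of 9.89, 10.8 and 2.43 in the same order, at chr5:92554877-92555545. At chr11:98937429-98938148 the member over the start of Rara, the retinoic acid receptor alpha, had 8.88, 9.51 and 2.41, and a predicted gene, Gm46294, spans the same place. It was the only one of these 10 with a CSMN −log10 q of at least 5, at 5.34, and so rests least on a weak CSMN peak.

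At the start of Atp6v1e2, a subunit of the vacuolar proton pump, the member at chr17:86947798-86948570 had folds of 10.7, 11.8 and 2.63. At the start of Tie1, a receptor tyrosine kinase of endothelial cells, the folds at chr4:118489631-118490177 were 8.79, 9.06 and 2.43. Both of these windows held a match to the CAGATG motif. The other 5 were near the starts of Nxf2 on chromosome X with folds of 8.10, 10.7 and 2.34, Tmem89 with 10, 9.69 and 2.60, Tsc22d1, a transcription regulator, with 10.1, 10.4 and 2.69, Pgpep1l with 7.71, 9.60 and 2.43 and Slfn9 with 6.71, 7.01 and 2.26. In each of the 10 the lower of the CPN folds was above 6 and the CSMN fold below 3.

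The base composition of the gene starts that were members differed from that of other shared gene starts and resembled that of the reverse class. In 147 windows of 250 bases that overlapped 127 members, the median content of G or C was 54.0% with 7 CpG pairs. In 15153 windows that overlapped regions of neither rule the medians were 60.8% and 16, and in 167 windows of regions higher in CSMN they were 54.4% and 7. Over all 32851 windows of the table they were 52.4% and 6. CpG-rich promoters are known for being open in most tissues. Of the 14678 shared regions at gene starts, 5447 had a CSMN percentile of at most 0.75 and so could be members. The windows were not split by CSMN percentile, so how far strength in CSMN goes with these differences was not tested.

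Motifs were searched on both strands as plain letters, and a match is a description of the letters only. The GGGCGG letters of SP and KLF factors were found in 32.0% of the members' windows (25 to 39.9%), 59.7% of those of neither rule, 33.5% of those higher in CSMN and 32.7% of all windows. The E-box CAGATG was found in 18.4% (12.9 to 25.4%) of the members' windows, against 9.67%, 15% and 14.4%. The AP-1 letters TGANTCA were found in 7.48% (4.23 to 12.9%), against 3.88%, 3.59% and 6.75%, and the homeobox letters TAATTA in 6.12% (3.25 to 11.2%), against 2.16%, 8.38% and 4.84%. For these 4 motifs the members' interval held the value over all windows and did not hold that of the windows of neither rule.

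The remaining motifs gave smaller differences or few matches. CCAAT was found in 32.7% of the members' windows and 33.8% of all windows, the E-box CAGCTG in 10.2% and 13.0%, the SOX letters ACAAAG in 15% and 16.5%, and AGGTCA, a nuclear receptor motif, in 11.6% and 14%. The POU letters ATGCAAAT were in 2 of the 147 windows, 1.36% against 1.60% of all windows. The CRE letters TGACGTCA were in 1 window, 0.680% against 1.55%. No member's window held the T-box letters AGGTGTGA, the NFI pair of TTGGC and GCCAA with 5 bases between, or the NRF1 motif, which 1.12%, 0.0365% and 0.782% of all windows held. A motif can overlap another in these counts, and the 3438 members away from gene starts were not searched.

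In both CPN libraries the members' peaks were wider than in CSMN, and the summits of the CPN peaks lay closer together. The median widths of the strongest peaks were 508 bp (CPN 1), 411 bp (CPN 2) and 232 bp (CSMN), while in regions of neither rule it was 503, 384 and 401 bp. Both CPN peaks were wider than the CSMN peak in 87.8% of members, 39.3% of regions of neither rule and 7.63% of regions higher in CSMN. Peak width grows with peak strength, which the rule used, so this is a description. The median distance between summits was 18 bp between CPN 1 and CPN 2, 49 bp between CPN 1 and CSMN and 50 bp between CPN 2 and CSMN. In regions of neither rule the medians were 23, 34 and 37 bp, and in regions higher in CSMN 34, 35 and 39 bp. With exactly 1 peak in every library, as in 90.0% of members, the members' medians were 19, 47 and 48.5 bp. How far the weakness of the CSMN peaks moves their summits was not tested.

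Members were of intermediate width. They were 1.99% of the 1964 shared regions of up to 200 bp and 5.26% of those over 200 and up to 400 bp. Members were 8.21% of regions over 400 and up to 600 bp and 6.68% of those over 600 and up to 1000 bp. Of the 10690 that were wider, 1.85% were members. Peak width grows with peak strength, which the rule used, so these shares are a description. The median merged width was 537 bp for members and 577 bp for regions of neither rule.

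Members were found on every chromosome. On the autosomes they were from 4.55% (chromosome 7) to 6.82% (chromosome 14) of the shared regions. The balance of both directions varied more: chromosome 11 held 231 members and 91 regions higher in CSMN, chromosome 9 held 202 and 105, and chromosome 19 held 104 and 48, while chromosome 3 held 179 and 220. On chromosome X 41 of 1222 shared regions were members (3.36%, 2.48 to 4.52%) and 5.32% were higher in CSMN. On chromosome Y 1 of 236 was a member (0.424%) and 73 (30.9%) were higher in CSMN. The lists held 333, 373 and 594 peaks on chromosome Y in CPN 1, CPN 2 and CSMN, although the CSMN list was the shortest overall. The part of the animals' sex, which is unknown here, in these counts was not tested.

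Members tended to lie near each other and near regions that were open in CPN only. Another member lay within 50 kb of 24.3% of members, against 19.5% of regions of neither rule and 12.9% of regions higher in CSMN. Of the shared regions within 50 kb of a member, 7.28% were members, against 5.29% and 3.47% around the other classes. The reverse class lay near itself more often still, with 12.8% of its shared neighbours of its own class against 4.38% around regions of neither rule, so closeness to the same class was not particular to members. Regions found by both CPN libraries but not by CSMN numbered 3.01 on average within 50 kb of a member, 2.61 around regions of neither rule and 1.72 around regions higher in CSMN. Regions with a CSMN peak alone numbered 1, 1.15 and 2.31. Away from gene starts members differed less from regions of neither rule. There 24.4% and 20.6% had a member within 50 kb, with means of 3.02 and 2.73 regions found by both CPN libraries only. At gene starts 4.96% and 4.56% of the shared neighbours were members. The CSMN list was the shortest and depth is unknown, so a missing CSMN peak need not mean closed chromatin. These neighbours were not used to choose the members, but they come from the same libraries.

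Most members still stood alone among the shared regions. When shared regions were read in order along each chromosome, 3000 members had no member on either side, and 248 pairs, 23 runs of 3, 3 runs of 4 and 1 run of 6 were found. The run of 6 lay at chr14:47989387-48084781, 95395 bp around Peli2, an E3 ubiquitin ligase of innate immune signalling. Its folds ranged from 5.93 to 10.9 in CPN 1, from 6.32 to 11.8 in CPN 2 and from 2 to 3.47 in CSMN. Its lower gaps ranged from 0.265 to 0.672.

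Of the members 3036 (84.7%) had a protein-coding gene within 100 kb, and they fell on 2332 of the 15921 genes with a shared region. Members were 5.51% of the 55097 assigned regions. Most of these genes, 1850, had 1 member, 334 had 2, 100 had 3, 33 had 4 and 15 had 5 or more. Genes with a member were longer and had more shared regions, with a median body of 69.0 kb and 6 shared regions, against 21.2 kb and 2 for the 13589 genes with none. The 15 genes with the most members had a median body of 740 kb. They were chosen for their members, and their counts are a description. After removing peaks under a −log10 q of 5, the counts were over 1.5 times lower at 11 of them: Dab1 to 2, Slc39a11 and Nfia to 2 each, Creb5, Adgrb3, Gpc6 and Nckap5 to 1 each, Sh3pxd2a, Sipa1l1 and Pdzrn3 to 3 each and Pcdh9 to 0. Leaving out CPN 1 gave 11 at Ntm and 8 at Nfia, and ranking by −log10 p gave 12 at Gse1.

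Genes of cell adhesion, synapses and neuronal wiring were among the 15. Rbfox1, a regulator of neuronal splicing, had 8 members among 28 shared regions. Dab1, the adaptor through which reelin acts in migrating neurons, had 7 of 20, and Ntm, the adhesion molecule neurotrimin, had 7 of 30. None of these 3 genes had a region higher in CSMN. Such regions were 4.15% of all assigned regions and 14 of the 445 shared regions at the 15 genes. Their absence from a single gene is therefore not read as a result. Adgrb3, an adhesion receptor of synapses, had 6 of 22 with 1 in the other direction. Pcdh9, a protocadherin, had 5 of 19, and Tenm4, a teneurin, 5 of 61, both with none in the other direction. Gpc6, a glypican of the cell surface, had 5 of 33 with 3 in the other direction.

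The strongest member in Dab1, at chr4:103881662-103882162, had folds of 14.3 (CPN 1), 14.2 (CPN 2) and 3.30 (CSMN). The member of Dab1 with the largest lower gap, at chr4:104269477-104270439, had 9.71, 8.47 and 2.52 in the same order. In Rbfox1 the largest lower gap was at chr16:5927034-5927321, with folds of 7, 8.08 and 2.52, and in Ntm it was at chr9:29076011-29076632, with 9.02, 7.01 and 2, where the CSMN peak had a −log10 q of 1.32. Another region of Ntm, at chr9:29390707-29391364, had 11.5, 11.7 and 2.86 with a CSMN −log10 q of 5.38. The 7 members of Dab1 and the 7 of Ntm all lay inside the gene, as did 6 of the 8 of Rbfox1.

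Of the transcription factors among the 15, Creb5, which binds cAMP response elements, had 5 members among 11 shared regions, 45.5% and the highest share of the 15. In Creb5 the largest lower gap was at chr6:53371923-53372387, with folds of 9.48, 7.74 and 2.26. Nfia, a nuclear factor I of the developing brain, had 5 of 52 and 3 in the other direction. Its strongest member lay 13394 bp outside the gene at chr4:97564326-97565018, with folds of 11.6, 13.3 and 2.52 and a lower gap of 0.654. Gse1 had 7 of 50 and 2 in the other direction. The remaining 5 genes were Slc39a11, a zinc transporter, with 6 of 28, Sipa1l1, a postsynaptic regulator of Rap, with 5 of 15, and Pdzrn3, a ubiquitin ligase, with 5 of 22. Sh3pxd2a had 5 of 21 and Nckap5 5 of 33. In the other direction Slc39a11 had 1 region, Sh3pxd2a and Nckap5 had 2 each, and Creb5, Sipa1l1 and Pdzrn3 had none.

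**Figure D4:**
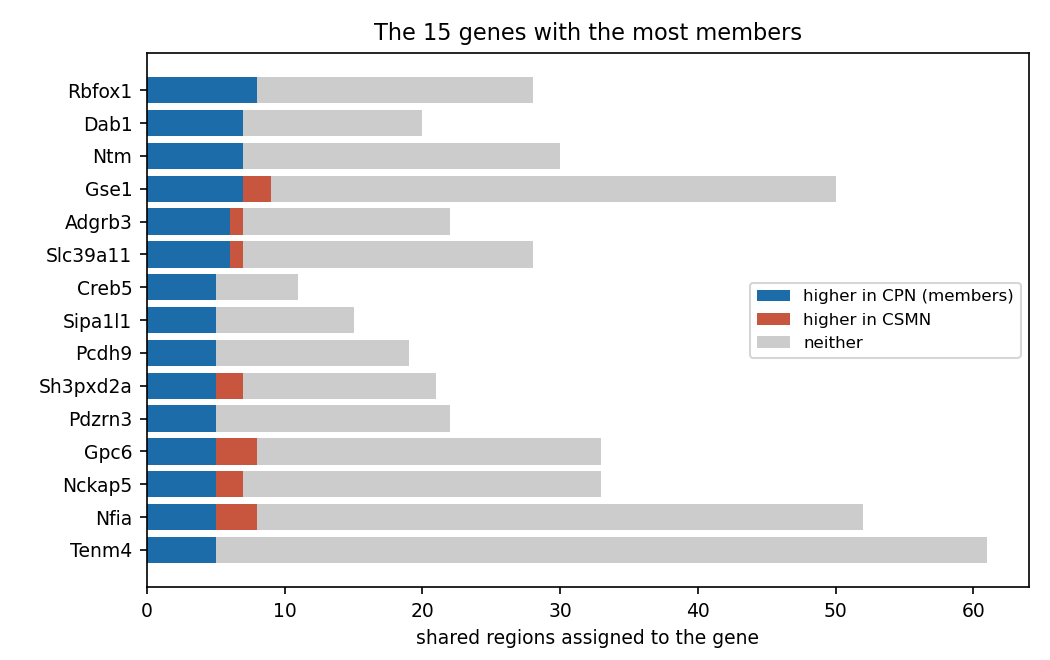
Shared regions assigned to each of the 15 genes with the most members (horizontal axis, count of regions), split into members (blue), regions higher in CSMN (red) and neither (grey). Most shared regions of each gene met neither rule, and 8 of the 15 genes have no region in the other direction. Regions in that direction were 14 of 445 at the 15 genes and 4.15% of all assigned regions.

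Gene lists of cell identity showed shares of members near that of all shared regions. No list was split by place or by CSMN percentile, with both of which the share of members varied. A list rich in gene starts or in strong CSMN peaks could have a low share for that reason alone. Of the assigned regions, from which the lists are drawn, 5.51% were members. In the list of callosal and upper-layer identity 14 of 26 genes had a member, and 23 of 308 shared regions were members (7.47%, 5.03 to 11%), with 16 in the other direction. In the list of CSMN and subcerebral identity 9 of 24 genes had a member, and 13 of 213 regions were members (6.10%, 3.60 to 10.2%), with 5 in the other direction. Both intervals hold 5.74%, the share over all shared regions. In the other direction the subcerebral share was 2.35% (1.01 to 5.38%), an interval that holds 4.76%, the share over all shared regions. With a −log10 q of at least 5 the subcerebral share was 4.69%, below that of all shared regions. Corticothalamic and subplate genes had 5 of 84 (5.95%) and 6 in the other direction, and their share changed sides of the overall one under other settings, at 3.33% with a −log10 q of at least 5, 2.67% within 10 kb of the gene, and 7.14% against 8.02% overall without CPN 2.

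The 4 callosal and upper-layer genes named for the most members were Chn2, a regulator of Rac, Limch1, Frmd4b and Cux2. They had 3 members of 10 shared regions, 3 of 18, 3 of 25 and 2 of 8 in that order, with none in the other direction. Of all 26 genes of the list, 11 had a region in the other direction. Members outnumbered regions higher in CSMN at 10 genes, and the reverse was true at 8. Cux2 had 0 members with a −log10 q of at least 5, Chn2 had 1 among regions with 1 peak in every library, and Chn2 and Frmd4b had 5 each without CPN 1. In Cux2 they were at chr5:121968462-121968886, with folds of 7.46 (CPN 1), 7.44 (CPN 2) and 2.44 (CSMN), and at chr5:121872249-121872563, with 7.51, 7.72 and 2.52 in the same order. In Limch1 a strong member at chr5:66889166-66889745 had 14.6, 14.4 and 3.82, and in Chn2 one at chr6:54126371-54127786 had 12.8, 14.3 and 3.99. The last 2 had CSMN peaks with a −log10 q of 11.5 and 12.7, so they were well above the threshold in all 3 libraries.

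Among subcerebral genes, Cdh13, a cadherin, had 3 members of 16 shared regions with 1 in the other direction. Sox5, a transcription factor of deep-layer neurons, had 3 of 28 with none in the other direction. Without CPN 1, Sox5 had 6 members and Cdh13 had 5. With a −log10 q of at least 5, Sox5 had 1 and Cdh13 had 2. The Sox5 region with the largest lower gap, at chr6:144367030-144368168, had folds of 6.61, 6.87 and 2.26 (CPN 1, CPN 2, CSMN), and that of Cdh13, at chr8:118628649-118629170, had 6.11, 7.51 and 2.26. Pcp4 had 1 of 5 and Npnt 1 of 4. Corticothalamic Tle4 had 2 of 15 and 1 in the other direction. Both lay over 10 kb outside the gene, at 31024 and 72677 bp, the nearer with folds of 8.45, 8.47 and 2.86 at chr19:14416535-14417561. Foxp2 had 1 of 18 and 3 in the other direction. Tshz2 and Zfpm2 had 1 each.

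Axon guidance genes had 29 members among 410 shared regions (7.07%, 4.97 to 9.97%) and 20 in the other direction, and 17 of 30 genes had a member. This interval holds 5.74%. With a −log10 q of at least 5 the share was 29 of 273 (10.6%, 7.50 to 14.8%), an interval above the 5.75% of all shared regions. Plxna4, a plexin that receives semaphorin signals, had 4 of 15, and Robo2, a receptor of Slit ligands, 4 of 16 with 1 in the other direction. With a −log10 q of at least 5 the count at Plxna4 was 2. Slit3, a ligand, had 3 of 31 with 1 in the other direction, and Nrp2, a neuropilin, 2 of 12 with none. The strongest Robo2 member, at chr16:74597846-74598484, had folds of 15.7, 14.6 and 3.47, and a Plxna4 member at chr6:32261220-32261812 had 9.07, 11.6 and 2.80. Genes of dendrite morphology had 15 of 244 (6.15%, 3.76 to 9.89%) and 10 in the other direction. Dscam, an adhesion molecule of dendrite spacing, had 4 of 25 with 2 in the other direction. Kalrn, a guanine exchange factor of spines, had 4 of 27 with none in the other direction. The folds in the Kalrn region at chr16:34413577-34414474 were 10.3, 9.93 and 2.94. The count at Dscam was 0 with a −log10 q of at least 5 and 1 by −log10 p. Camk2b had 1 of 6.

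No member was assigned to genes expressed by excitatory neurons in general, with 0 of 79 shared regions (Wilson upper bound 4.64%) and 4 in the other direction. Activity-regulated genes had 1 of 56, which lay 36432 bp from Fos. Interneuron genes had 1 of 75 (in Reln). Cortical progenitor genes had 3 of 98, at 22648 bp from Eomes, 99237 bp from Sox2 and in Gli3. In the other direction the interneuron and progenitor lists had 5 regions each, among them 1 at Reln, 1 at Sox2 and 3 at Gli3. Activity-regulated genes had none. The shares of members of these 4 lists lay below 5.74%. The upper bounds for activity-regulated, interneuron and progenitor genes were 9.45%, 7.17% and 8.62%. With a −log10 q of at least 5, interneuron genes had 3 of 53 (5.66%), against 5.75% of all shared regions. At that setting genes of excitatory neurons in general had 0 of 62, and the interval (0 to 5.83%) holds 5.75%. Without CPN 1 this last list had 2 of 79 (2.53%, 0.697 to 8.77%), an interval that holds the 8.60% of all shared regions. Without CPN 2 it had 1 of 79.

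Marker genes of glia and vessels also held members, on small counts. Oligodendrocyte lineage genes had 4 of 40 (10%, 3.96 to 23.1%). Of these 1 lay in Mbp, 1 at 19496 bp from it, 1 at 32299 bp from Olig1 and 1 at 33737 bp from Olig2. Microglial genes had 2 of 21 (9.52%, 2.65 to 28.9%), at 14 bp from Tmem119 and 44036 bp from Irf8. Endothelial and mural genes had 4 of 42 (9.52%, 3.77 to 22.1%), 2 in Flt1, 1 at 10787 bp from Erg and 1 at 14726 bp from Pecam1. Astrocyte genes had 5 of 72 (6.94%, 3 to 15.2%). They lay at 6444 and 51111 bp from Slc1a3, 191 bp from Aldoc, 16035 bp from Fgfr3 and in Aqp4. In the other direction these 4 lists had 1, 0, 3 and 2 regions. Among them were 1 at Olig2, 1 at Slc1a3 and 1 at Aqp4. The member near Olig2, at chr16:91191277-91192350, had folds of 8.43, 9.25 and 2.58, and a member near Slc1a3, at chr15:8761602-8762234, had 9.31, 10.4 and 3.38. Every one of these 4 intervals holds 5.74%. With a −log10 q of at least 5 the oligodendrocyte share was 17.4% (6.98 to 37.1%, 4 of 23), above the 5.75% of all shared regions, and with regions in or within 10 kb of the gene it was 3.45%. Their part, and that of cells other than neurons in the sorted samples, in the members was not tested.

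**Figure D5:**
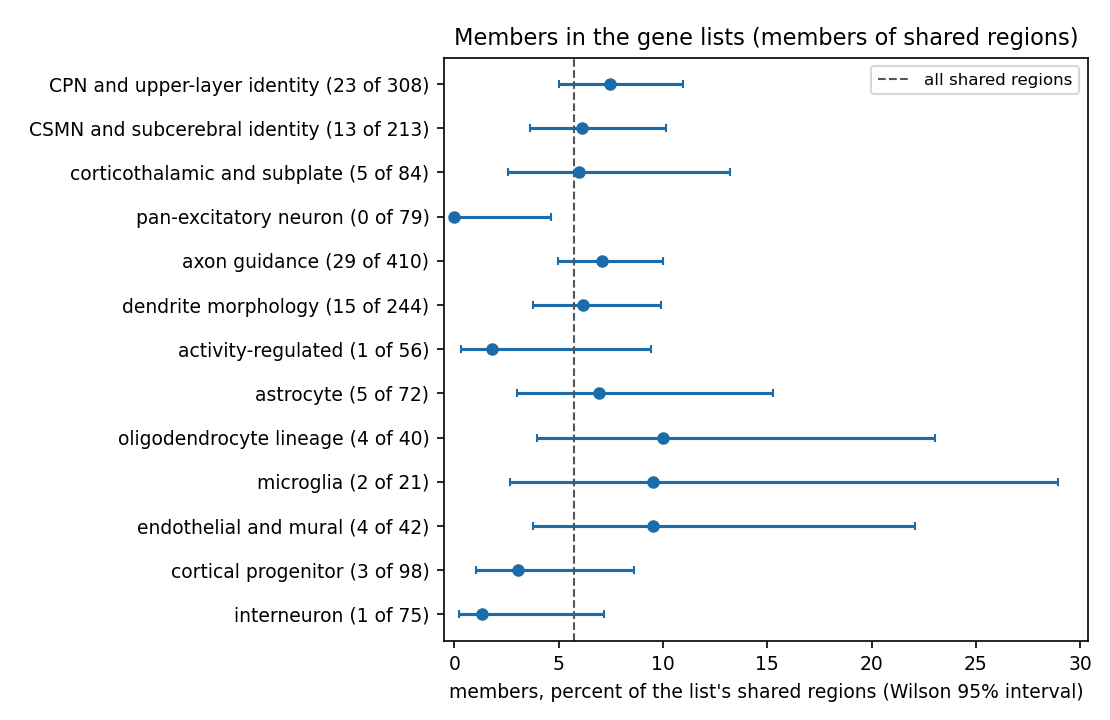
Members as a percent of the shared regions assigned to each gene list (horizontal axis), with Wilson 95% intervals as bars and the share over all shared regions, 5.74%, as the dashed line. The intervals of most lists cross the line, and the list of genes expressed by excitatory neurons in general, with 0 of 79, lies wholly below it. With a −log10 q of at least 5 the interval of that list holds the share over all shared regions. The lists are not split by place or CSMN percentile.

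Fezf2, Bcl11b, the microRNA genes Mir193b and Mir365-1 and Mapk8 had no member within 10 kb. At Fezf2 lay 2 shared regions, of which the one over its start, chr14:12344608-12346993, had folds of 3.54 (CPN 1), 3.35 (CPN 2) and 2.97 (CSMN) and percentiles of 0.15, 0.0980 and 0.335. The other, at chr14:12337494-12338697, had folds of 5.99, 6.68 and 4.30. Both ranked higher in CSMN than in both CPN libraries, by less than the margin. Mir193b and Mir365-1 are neighbours and share 3 regions, in which the folds were 4.4, 3.35 and 3.38 at chr16:13446524-13446906, 3.68, 4.06 and 3.11 at chr16:13447412-13448687 and 2.73, 2.66 and 2.15 at chr16:13451844-13452239. The first 2 ranked higher in CSMN and the last ranked alike in all 3 libraries. Bcl11b had 9 shared regions within 10 kb, with lower gaps from -0.213 to 0.0648. The region over the start of Mapk8 had folds of 17, 15.1 and 10.7 and percentiles of 0.921, 0.883 and 0.929.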

How the data were processed

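ATAC-seq peak lists of 2 CPN libraries and 1 CSMN library of mouse were used. Per the submitters' processing notes, MACS2 2.2.7.1, BWA 0.7.17, bedtools 2.29.2 and the build mm10 were used, with no roles stated. How reads were filtered and shifted for the transposase, and the peak caller's mode, are not given in the sources used here. Peaks were taken as called per library, since the deposited peak names carry 1 library's name each. The authors deposited for each peak a fold enrichment (a ratio), −log10 p and −log10 q, a score that equals 10 times the −log10 q cut to a whole number, and the offset of its summit in bp (another measure).

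Peaks were merged with pandas 2.3.3, and the regions differed from those of bedtools 2.31.1 in 0 cases. Percentiles are ranks with ties averaged, divided by 62435. The code of the rule was run on simulated lists with planted regions and little noise. This checks the code only, not how the rule behaves on the libraries studied here. Regions were assigned to the nearest RefSeq protein-coding gene body of GRCm38.p6 within 100 kb of their middle. A gene start is a start in the RefSeq promoter table, or either gene end for genes with none there. Of 198 entries in 13 gene lists, 197 matched a current symbol and 1 an older one.

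Named are the 10 members with the largest lower gap, the same among members with peaks of at least 200 bp and among members at a gene start, 3 regions on each side of the margin, the 15 genes with the most members, up to 4 genes per list with the most members, and Fezf2, Mir193b, Mir365-1, Mapk8 and Bcl11b. Members, lists and rules were chosen with earlier results of these data known. Alternatives covered the margin, the merging overlap, −log10 p as the ranked value, stricter and equal lists, regions of 1 peak per library, each CPN library alone, the gene start window and the reach of genes.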

Additional observations from a re-analysis of the deposited data

How the results depend on the processing

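The number of members was 7791 at a margin of 0.15, 1534 at 0.35 and 304 at 0.5, and the reverse class held 7582, 991 and 132 regions. Members numbered 5009 to 5372 and the reverse class 4573 to 5015 when 1 CPN library was left out. Ranking by −log10 p gave 3468 members, of which 2926 were among the 3583, equal lists gave 3232 and regions with 1 peak in every library 3102. The share of members at gene starts was 8.46% with a window of 5 kb, 2.96% at a margin of 0.5 and 6.97% with a −log10 q of at least 5, and 4.45 to 4.90% with 1 CPN library left out. For all shared regions except members it was 31.5%, 23.6% and 31.4%, 23.1% with 1 peak per library, and 25.2 to 25.3% with 1 CPN library left out. The share of members inside genes was 45.2%, 51.0% and 45.6%, and 50.7% by −log10 p, and that of the other regions 32.4%, 37.3% and 32.2%, and 37.2% with 1 peak per library. The cause of these shifts was not tested, except that a wider window or another margin changes what is counted. Members stayed below the other regions at gene starts and above them inside genes under each setting for which these shares were computed. Margins of 0.15 and 0.35 and equal lists were not among these settings. None of the settings matched members and other regions by CSMN percentile. At CSMN percentiles up to 0.25, which held 2330 of the 3583 members, no excess inside genes was seen. The share of the subcerebral list was 4.69% with a −log10 q of at least 5 and 5.16% by −log10 p, below all shared regions, and that of the oligodendrocyte list was 3.45% with regions in or within 10 kb of the gene only. With a −log10 q of at least 5 the oligodendrocyte list had 17.4%, the astrocyte list 9.80%, the endothelial and mural list 12.5% (16.7% without CPN replicate 1), the microglial list 0 of 11 and the axon guidance list 29 of 273 (10.6%). At that setting the intervals of the axon guidance list (7.50 to 14.8%) and the oligodendrocyte list (6.98 to 37.1%) lay above the 5.75% of all shared regions. With 13 lists and several settings each, and intervals of counting error only, this is a description. In the main setting both intervals held the share of all shared regions. Of 31 named regions, 4 were shared at a −log10 q of at least 5. The CSMN library could not be left out, as it is the only one, and depth is unknown.

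No paired analysis was possible because CSMN had 1 library, so the groups shared fewer than 2 replicate numbers, and no result came from a test.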
